A study of Homo sapiens with 11 samples.

Results

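The comparison described here sets liver tumours of shNPTX1_3 cells, which carry a short hairpin RNA directed at NPTX1, against liver tumours of shCTRL cells, which carry a control hairpin. It covers every gene in the authors' deposited table whose mean of the 11 libraries was 38.6 normalized counts or more (2 CPM, a level relative to the mean library total) and no group mean at 0. Of 23434 rows, 14192 met this rule, and 14130 were kept after 62 rows with no gene name, a calendar date for a name or a repeated name were left out. A normalized count is a read count divided by the size factor of its library. The ratio used throughout is the log2 of the shNPTX1_3 mean plus 1 over the shCTRL mean plus 1.

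All groups were grown from PANC1 LM3 cells. They derive from PANC1, an established human cell line of pancreatic ductal carcinoma, through liver metastases of generation 3, and the labels give the genotype of every group as WT. For each tumour, 500000 cells were put into the spleen on day 1, and the tumours that had formed in the liver were taken for RNA on day 21. The shCTRL group had 4 libraries, shNPTX1_3 had 3 and shNPTX1_4, a further NPTX1 hairpin that serves here only to mark what was shared, had 4. Not given in the sources used here are the host strain and age and whether each hairpin line was a pool or a single clone. The labels call the libraries biological replicates and do not tie them to animals, so p-values measure the spread of libraries, part of which may be technical. A bulk tumour library cannot tell fewer cells of a type from less RNA per cell.

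NPTX1 encodes neuronal pentraxin 1, a secreted protein known from synapses, where neuronal pentraxins bind AMPA-type glutamate receptors and gather them at the membrane. A short hairpin RNA is cut in the cell to a small interfering RNA that guides degradation of matching messages. Metastatic growth in the liver draws on growth factors, on attachment to and remodelling of the extracellular matrix, and on metabolic supply, and the genes below are ordered by these roles.

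The deposited table holds group means, so a ratio of shNPTX1_3 to control alone has no test of its own. Genes at least 2-fold apart were counted. Beside each stands the 1 replicated test of the table, DESeq2's comparison of the 7 knockdown libraries, shNPTX1_4 included, with the 4 control libraries. "Rose" and "fell" are used only for genes that passed that test at an adjusted p under 0.05, in its direction. A gene given by its means alone may or may not have passed.

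NPTX1 itself was lower in the shNPTX1_3 tumours. The control mean was 103 normalized counts, the shNPTX1_3 mean 46.5 and the shNPTX1_4 mean 38.4, a ratio of -1.13 for shNPTX1_3. The 3 shNPTX1_3 libraries, recovered from the group mean as described further down, held 72.6, 37.2 and 29.6 normalized counts, from the deepest library to the shallowest, and all lay below the control mean. NPTX1 fell: the authors' deposited table gives -1.26 on the log2 scale for all knockdown libraries, with an error of 0.24 (DESeq2 adjusted p = 3.65e-06). The pentraxin and AMPA receptor list had 5 kept members, and besides NPTX1 it held 1 other gene at least 2-fold apart, the long pentraxin PTX3, an innate immune pattern recognition molecule. PTX3 rose, and stood at 66.6 normalized counts in shCTRL, 176 with shNPTX1_3 and 78.9 with shNPTX1_4. The neuronal pentraxin receptor NPTXR fell, from 310 normalized counts in shCTRL to 194 in shNPTX1_3 and 216 in shNPTX1_4.

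Across the 14130 genes the ratio was centred near 0, with a median of 0.013 and quartiles of -0.28 and 0.28. Most genes, 11784 or 83.4%, lay within 1.5-fold of control. At least 2-fold apart were 417 genes higher in shNPTX1_3 (2.95%) and 214 lower (1.51%), and at 4-fold the counts were 70 and 15. Higher genes made up 66.1% of those 2-fold apart on the authors' scaling, and 53% when the group means were scaled to the same total. The spread was wider than for shNPTX1_4, whose ratio had 5th and 95th percentiles of -0.57 and 0.57, against -0.68 and 0.78 for shNPTX1_3. By the same count shNPTX1_4 had 208 genes higher (1.47%) and 175 lower (1.24%). A mean over 3 libraries has more sampling spread than one over 4, and the part of library number in the wider spread was not tested.

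Of the 417 higher genes, 347 also passed DESeq2's test on the higher side (83.2%), and of the 214 lower genes 153 passed it on the lower side (71.5%). Over all kept genes with an adjusted p, 19.4% passed on the higher side and 13.1% on the lower. The same libraries enter both counts, so nothing is read from them. With shNPTX1_4 also 2-fold from the same controls, 134 of the higher genes were shared, which is 32.1% of the shNPTX1_3 genes and 64.4% of the shNPTX1_4 genes. Among the lower genes 69 were shared, or 32.2% and 39.4%. Since both hairpins use the same 4 control libraries, a control mean that is high or low by chance enters both ratios. In 50 of the 417 higher genes shNPTX1_4 was below control, and in 18 of the 214 lower genes it was above. At the 2-fold limit the lysophosphatidic acid receptor gene LPAR4 was just inside (452 and 908 normalized counts), and the exchange factor gene ARHGEF16 just outside (41.1 and 83.2). On the lower side RALGPS2 was just inside (547 and 271), and NPIPB13 just outside (324 and 162).

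**Figure D1:**
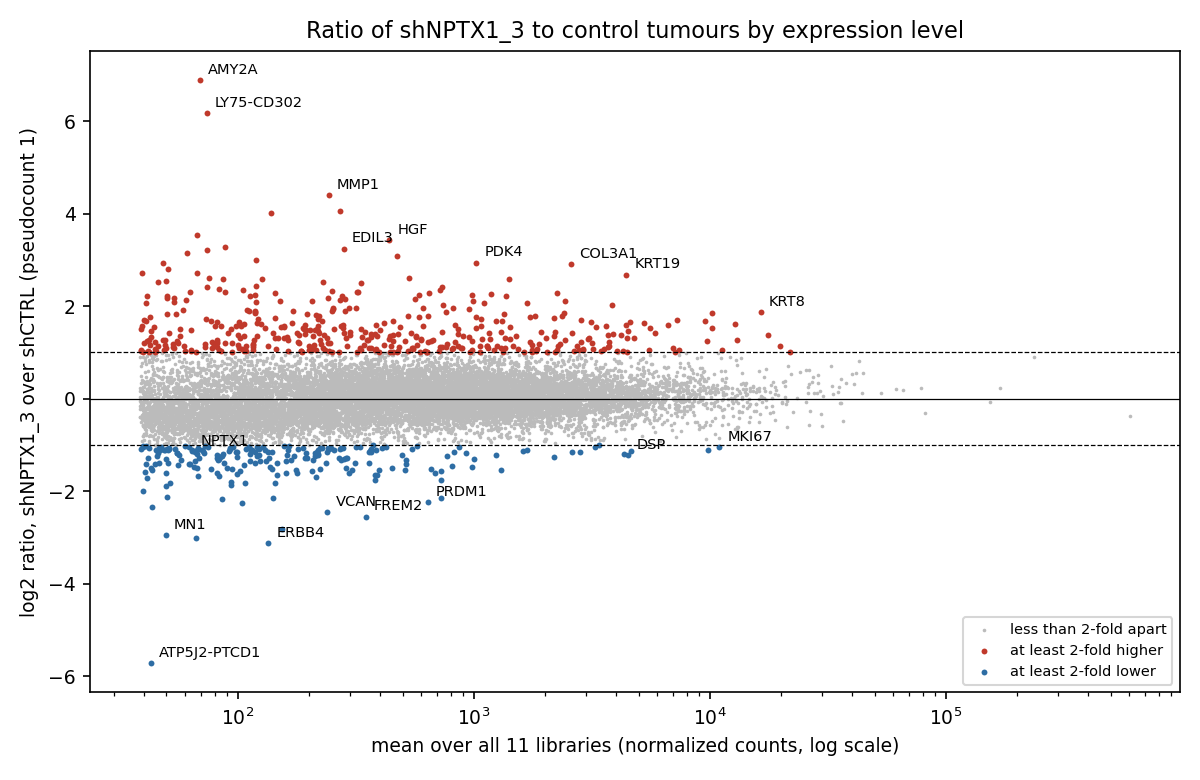
Log2 ratio of shNPTX1_3 to shCTRL (vertical axis, pseudocount 1) against the mean over all 11 libraries in normalized counts (log scale), 1 point per kept gene, with the 417 genes at least 2-fold higher in red, the 214 lower in blue and dashed lines at 2-fold. Most genes lie within 1.5-fold of control, and above 10000 normalized counts 9 genes are 2-fold higher and 1, MKI67, is lower.

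The 15 genes with the highest ratios lay between 2.93 and 6.89. Among them were AMY2A, LY75-CD302, MMP1, SPTSSB, VAV3, HGF, CAVIN2, EDIL3, MUC5B, ABCG2, TNFRSF11B, CD69, PDK4 and EGLN3. All 15 also passed DESeq2's test, while 12 were 2-fold higher with shNPTX1_4 as well. MMP1, which cleaves fibrillar collagens, went from 31.7 normalized counts in control tumours to 689.5 with shNPTX1_3 and 119 with shNPTX1_4. Its shNPTX1_3 mean was more than 3 times its shNPTX1_4 mean. SPTSSB, a small activating subunit of serine palmitoyltransferase in sphingolipid synthesis, had 21.4 normalized counts in control, 362 with shNPTX1_3 and 86.7 with shNPTX1_4, an order of groups that is kept for all triplets below. HGF, the ligand of the MET receptor, had 71.7, 781 and 553 normalized counts. EDIL3, a secreted integrin ligand, had 50.2, 484 and 361 normalized counts, so that these last 2 genes were high with both hairpins. Their errors were the narrowest of the 15: the authors' deposited table gives 0.21 for HGF and 0.19 for EDIL3 as the standard error of the log2 fold change, against a median of 0.52 for the set.

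Of the set, AMY2A, VAV3 and EGLN3 were not 2-fold higher with shNPTX1_4. VAV3, a guanine nucleotide exchange factor, had 15.8, 193 and 24.5 normalized counts. EGLN3, a prolyl hydroxylase of hypoxia-inducible factors, had 15.5, 125 and 24.2 normalized counts. For this pair the authors' deposited table gives wide log2 errors of 0.82 and 0.70, with DESeq2 adjusted p-values of 0.0092 and 0.012. AMY2A, a pancreatic amylase gene, had 1.12, 251 and 0.67 normalized counts, and the authors' deposited table gives it a log2 error of 2.49 (DESeq2 adjusted p = 0.031). The high shNPTX1_3 mean of AMY2A is taken up below with other digestive enzymes. LY75-CD302 is a readthrough of 2 neighbouring genes, so its reads may belong to either of them. Its means were 2.30, 236 and 23.8 normalized counts.

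Further up the set by level, TNFRSF11B, the decoy receptor osteoprotegerin, had 125, 1073 and 369 normalized counts. PDK4, a kinase that restrains pyruvate dehydrogenase, had 292, 2253 and 835 normalized counts. Both rose, and for them the authors' deposited table lists DESeq2 adjusted p-values of 1.18e-06 and 1.09e-06. The drug efflux transporter gene ABCG2 had 11.3, 108 and 75.9 normalized counts, and the gel-forming mucin gene MUC5B had 16.4, 160.0 and 67.5. CAVIN2, a coat protein of caveolae, had 17.9, 183 and 87.9 normalized counts, and CD69, a C-type lectin known as an early activation marker of lymphocytes, had 29.9, 246 and 116.

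The 15 lowest ratios went down to -5.72. Among the genes were ATP5J2-PTCD1, ERBB4, FYN, MN1, HEY1, FREM2, VCAN, CEP295NL, ZNF618, PRDM1, TET1, ADGRL3 and TLR2. Of the 15, 9 passed DESeq2's test on the lower side and 10 were also 2-fold lower with shNPTX1_4. FREM2, a basement membrane protein of the Fraser complex, had 730.1, 124 and 136 normalized counts. Versican (VCAN), a large proteoglycan, had 491, 89.0 and 103 normalized counts. PRDM1, a transcriptional repressor, had 1276, 272 and 278. These 3 genes had near-equal means with both hairpins, and narrow log2 errors of 0.13, 0.11 and 0.17 by the authors' deposited table. MN1, a transcriptional regulator, fell, with 95, 11.4 and 32.7 normalized counts (authors' deposited table, DESeq2 adjusted p = 1.03e-06).

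Other genes at the low end had lower means with shNPTX1_3 than with shNPTX1_4 and did not pass the combined test. ERBB4, a receptor of neuregulins, had 216, 24.1 and 135 normalized counts (log2 error 0.66 by the authors' deposited table, DESeq2 adjusted p = 0.12). HEY1, an effector of Notch, had 186, 25.7 and 219 normalized counts (authors' deposited table, DESeq2 adjusted p = 0.67). TET1, a methylcytosine dioxygenase, had 1099, 247 and 715 normalized counts, and the latrophilin gene ADGRL3 had 185, 41 and 174. FYN, a kinase of the SRC family, had 117, 13.7 and 56.6 normalized counts (authors' deposited table, DESeq2 adjusted p = 0.068). ATP5J2-PTCD1 is another readthrough, at 84.1, 0.62 and 33.7 normalized counts. Both FYN and this readthrough were also 2-fold lower with shNPTX1_4. The shNPTX1_3 mean of ATP5J2-PTCD1 is 1 read in 1 library, and the authors' deposited table gives it a log2 error of 2.99.

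**Figure D2:**
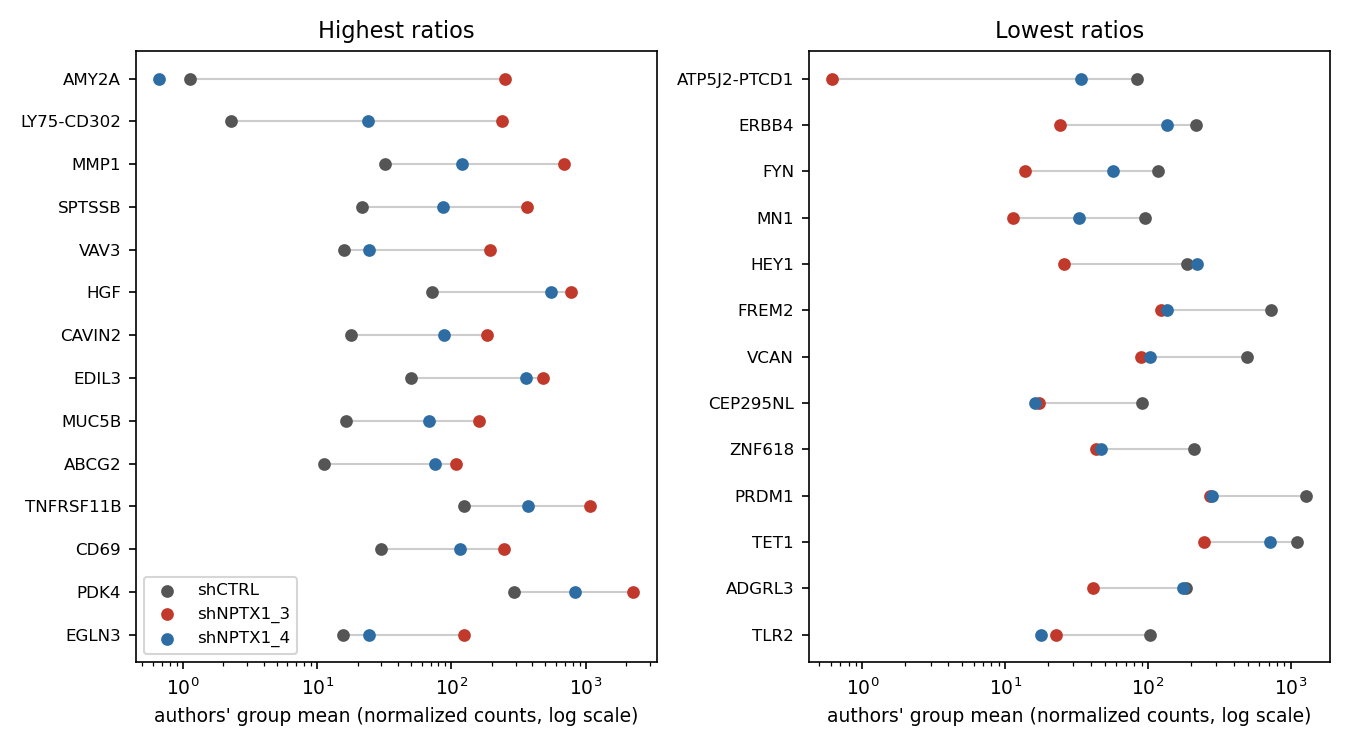
Authors' group means in normalized counts (horizontal log axis) of genes with the highest and the lowest ratios (14 and 13 of 15 shown), shCTRL in grey, shNPTX1_3 in red and shNPTX1_4 in blue, with a line from control to shNPTX1_3. For HGF, EDIL3, FREM2, VCAN and PRDM1 the hairpins lie close together, while for AMY2A, VAV3, HEY1 and ADGRL3 shNPTX1_4 lies near control.

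Among the 4538 genes with a mean of at least 50 CPM, 117 were 2-fold higher and 16 lower. The 10 highest were PDK4, COL3A1, KRT19, MEGF6, S100A4, SDC2, CP, CSF1, LIPG and THBS1, of which 9 were also 2-fold higher with shNPTX1_4 and 9 rose in DESeq2's test. COL3A1, a fibrillar collagen, had 731, 5517 and 2247 normalized counts. The keratin gene KRT19 had 1272, 8180 and 4803 normalized counts, and the syndecan gene SDC2 had 475, 2295 and 1064. CP, the copper oxidase ceruloplasmin, had 409, 1951 and 840 normalized counts, and LIPG, endothelial lipase, had 413, 1789 and 973. THBS1, the matricellular thrombospondin 1, stood apart from them, at 1364, 5863 and 963 normalized counts, and was not called (log2 error 0.66 by the authors' deposited table, DESeq2 adjusted p = 0.18). Lowest were the 10 genes SKIDA1, MTRNR2L8, MYH10, NPIPB3, DSP, BAHCC1, HMGA2, PTPN12, NID1 and NPIPB5, of which 1 was also 2-fold lower with shNPTX1_4 and 6 fell in DESeq2's test. DSP, the desmosomal plaque protein desmoplakin, was the shared one, with 7459, 3198 and 2561 normalized counts. The chromatin protein gene HMGA2 had 5272, 2297 and 4919 normalized counts, and the nonmuscle myosin gene MYH10 had 1238, 504 and 1136, so both were near control with shNPTX1_4. NPIPB3 and NPIPB5 belong to a family of near-identical copies, and MTRNR2L8 resembles mitochondrial sequence, so their counts are uncertain.

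Ligands and growth factors come first among the gene groups. For every list below, the shares over all genes are 2.95% higher and 1.51% lower at 2-fold. In DESeq2's test they are 19.4% and 13.1%. In the list of ERBB ligands, receptors and ERK output, 6 of 25 kept members were 2-fold higher and 0 lower, with a median ratio of 0.021, and 8 rose and 2 fell in DESeq2's test. The higher ones were the EGF-family ligand genes AREG, EREG, NRG1 and HBEGF, the ERK phosphatase gene DUSP4 and the early response gene IER3. AREG, which encodes amphiregulin, went from 40.7 to 196 normalized counts, and EREG, which encodes epiregulin, from 379 to 1393, with 137 and 683 in shNPTX1_4. The neuregulin gene NRG1 went from 103 to 314 normalized counts. ERBB4, a receptor gene with 1 of the lowest ratios of all, is not on this list, so the 0 lower leaves it out. All 6 rose, and for HBEGF the authors' deposited table gives a DESeq2 adjusted p of 0.046. Scaled to the same total, the median of this list was -0.073. Among angiogenic and growth factors 6 of 18 kept members were 2-fold higher and 0 lower, at a median of 0.53 against 0.057 with shNPTX1_4. After HGF and THBS1 came the vascular growth factor gene VEGFA (1574, 5126 and 2412 normalized counts), ANGPTL4 (863, 2365 and 946), the placental growth factor gene PGF (267, 645 and 232) and PDGFA (596, 1272 and 710.1). VEGFA and PDGFA rose, while ANGPTL4 and PGF did not pass (authors' deposited table, DESeq2 adjusted p = 0.11 and 0.30).

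Among TGF-beta ligands and target genes 5 of 23 kept members were 2-fold higher and 0 lower, at a median of 0.11 against -0.16 with shNPTX1_4. DESeq2's test called 6 of them higher and 4 lower, against 19.4% and 13.1% of all genes. The activin subunit gene INHBB rose, with 74.7, 377 and 337 normalized counts. The receptor gene TGFBR2 (830.4, 1764 and 1444) and the ligand gene TGFB2 (1952, 4800 and 2875) also rose. The ligand gene TGFB1 fell, with 154, 85.3 and 108 normalized counts, and so did the target genes ID2 (804, 574 and 419), ID4 and PMEPA1. TGFBI, a target gene and matrix protein, had 2272, 5626 and 1960 normalized counts and did not pass (authors' deposited table, DESeq2 adjusted p = 0.27).

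Many inflammatory genes had higher means with shNPTX1_3. Of 24 kept NF-kB and inflammatory genes, 9 were 2-fold higher and 0 lower, 20 lay above control, and the median ratio was 0.60 against -0.036 with shNPTX1_4. DESeq2's test called 7 higher and 2 lower, against 19.4% and 13.1% of all genes. Of the 9, 1 was also 2-fold higher with shNPTX1_4. That shared gene was CSF1, a growth factor of macrophages, with 537, 2505 and 1365 normalized counts. The chemokine gene CXCL8 had 266, 1197 and 386 normalized counts, and CCL2, a monocyte chemokine, had 3292, 9476 and 4987. LIF, a cytokine of the interleukin 6 family, had 2533, 5938 and 3301 normalized counts, and NFKBIZ, a nuclear inhibitor-like regulator of NF-kB, had 1407, 3377 and 2794. These 4 rose. CXCL2, a neutrophil chemokine, had 727, 1565 and 533 normalized counts and did not pass (authors' deposited table, DESeq2 adjusted p = 0.49). Among interferon response genes 5 of 32 were 2-fold higher and 0 lower, against 2.95% and 1.51% of all genes. DESeq2's test called 3 of the 32 higher and 6 lower, against 19.4% and 13.1% of all genes. The guanylate-binding protein genes GBP3, with 204, 579 and 275 normalized counts, and GBP2, with 46.5, 156 and 37.8, had the highest ratios, and GBP2 did not pass. The members that fell were IFITM1, IFITM2 (471, 243 and 279 normalized counts), IFITM3 (1288, 887 and 751), HERC5, HERC6 and OAS3. In MHC class I antigen presentation 3 of 19 were 2-fold higher. They were TAPBPL, a peptide editor, the trimming peptidase gene ERAP2 (1202, 2824 and 1433 normalized counts) and the immunoproteasome gene PSMB8.

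Matricellular and collagen genes were often high with shNPTX1_3. Of 27 kept matricellular and glycoprotein genes 10 were 2-fold higher and 3 lower, at a median of 0.83, against 0.025 with shNPTX1_4. The members that moved were of different kinds: EDIL3 and the fibrillin gene FBN1 (106, 481 and 198 normalized counts) rose, and VCAN and FREM2 fell. POSTN, the matricellular periostin, had 38.7, 239 and 21.5 normalized counts and was not called (log2 error 0.86 by the authors' deposited table, DESeq2 adjusted p = 0.17). Of 32 collagens and collagen-modifying enzymes 6 were 2-fold higher and 0 lower, and all 6 rose. Besides COL3A1 they were COL5A2 (4004, 14502 and 13313 normalized counts), the basement membrane chain COL4A5 (268, 911 and 657), COL6A1 (3354, 10117 and 7298), COL6A2 and the lysyl hydroxylase gene PLOD2 (5157, 16528 and 8687). COL5A2 was near-equal with both hairpins. Of 27 matrix proteases and inhibitors 5 were 2-fold higher and 2 lower, against 2.95% and 1.51% of all genes, at a median of 0.44 against -0.036 with shNPTX1_4. DESeq2's test called 7 of them higher and 4 lower, against 19.4% and 13.1% of all genes. The gelatinase gene MMP9 had 32.4, 117 and 18.1 normalized counts and did not pass (authors' deposited table, DESeq2 adjusted p = 0.36). TIMP2, an inhibitor of matrix metalloproteinases, fell, with 1414, 416 and 267 normalized counts, and so did the serpin gene SERPINE2, with 131, 49.2 and 72.9. CEP295NL, one of the 15 lowest genes, lies within TIMP2, and without a stated strand setting their reads may be shared.

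Of 22 kept integrins and laminins 8 were 2-fold higher and 1 lower, at a median of 0.70 against 0.37 with shNPTX1_4. In DESeq2's test 13 rose and 3 fell, against 19.4% and 13.1% of all genes. The laminin chain gene LAMA4 had 320.4, 1257 and 415 normalized counts, and LAMB1 had 2211, 6976 and 5249. The collagen receptor chain ITGA2 had 1454, 3918 and 2776 normalized counts, and ITGB4, a chain of the hemidesmosome integrin, had 767, 1687 and 1114. ITGB2, the integrin chain typical of leukocytes, had 62.8, 236 and 84.8, and all of these genes rose.

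Epithelial and mesenchymal genes were both higher in part. Of 25 kept epithelial junction and polarity genes 7 were 2-fold higher and 2 lower, at a median of 0.22. The keratin genes KRT8 (8293, 30512 and 14002 normalized counts) and KRT18 (5877, 16989 and 9450) rose with KRT19. The tight junction gene CLDN1 had 148, 740 and 177 normalized counts, and the epithelial transcription factor gene ELF3 had 98.1, 457 and 323. Both rose, and for CLDN1 the authors' deposited table gives a DESeq2 adjusted p of 0.035. On the lower side were DSP and the tight junction gene CGN, which had 82.7, 25.1 and 86.1 normalized counts and did not pass. Of 24 kept mesenchymal genes 9 were 2-fold higher and 0 lower, at a median of 0.53. In DESeq2's test 9 rose and 4 fell, against 19.4% and 13.1% of all genes. S100A4, a calcium-binding protein of motile cells, had 857, 4176 and 2222 normalized counts, fibronectin (FN1) 274, 1113 and 934, and tenascin C (TNC) 4167, 13596 and 5544. Other mesenchymal genes went the opposite way. The cadherin gene CDH2 fell, with 698, 351 and 415 normalized counts, and so did the transcription factor gene ZEB1, with 3583, 3051 and 3162. In the S100 and metallothionein list 7 of 12 kept members were 2-fold higher, 12 of 12 lay above control, and 8 rose. S100A6 had 11111, 28841 and 15973 normalized counts and S100A16 had 383, 1489 and 742. S100A13 had 556, 1207 and 529 and did not pass (authors' deposited table, DESeq2 adjusted p = 0.23).

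In the hypoxia response 5 of 30 kept members were 2-fold higher and 0 lower, at a median of 0.38. In DESeq2's test 13 rose and 2 fell, against 19.4% and 13.1% of all genes. Besides EGLN3, VEGFA and ANGPTL4 the members 2-fold higher were the glucose transporter gene SLC2A1, with 301, 801 and 408 normalized counts, and the mitophagy receptor gene BNIP3, with 1047, 2110 and 1874. In the other metabolic and protein-handling groups few genes were 2-fold apart. Of 19 glycolysis genes 0 were 2-fold apart, the median was 0.30, and 7 rose and 1 fell. Of 25 cholesterol synthesis genes 0 were 2-fold apart, the median was 0.43, and 14 rose and 0 fell, with NSDHL, a sterol dehydrogenase, at 262, 494 and 492 normalized counts. Of 41 nuclear-encoded respiratory chain genes 1 was 2-fold higher, the cytochrome oxidase subunit gene COX7C at 736, 1892 and 2002, and 15 rose and 0 fell. Of 31 proteasome subunits 0 were 2-fold apart, the median was 0.35, and 25 rose and 1 fell. Of 25 ER chaperone and unfolded protein response genes 1 was 2-fold higher, the transcription factor gene XBP1 at 778, 1673 and 1139 normalized counts, the median was 0.46, and 19 rose and 0 fell. Of 39 cytosolic ribosomal protein genes 0 were 2-fold apart, the median was 0.19, and 15 rose and 0 fell. The chaperone, proteasome and ribosomal medians with shNPTX1_4 were 0.40, 0.29 and 0.25. Among fatty acid and triglyceride genes the acyl-CoA synthetase genes ACSL5 (80.8, 237 and 102 normalized counts) and ACSL4 (1259, 3243 and 2355) were 2-fold higher and rose. The list's median of 0.079 was -0.015 when the groups were scaled to the same total.

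Cell cycle genes showed little shift. Of 42 kept members 0 were 2-fold higher and 1 lower, and the median was -0.087 against 0.17 with shNPTX1_4. In DESeq2's test 12 rose and 4 fell, against 19.4% and 13.1% of all genes. MKI67, the gene of the proliferation marker Ki-67, was the member 2-fold lower, with 14460, 6978 and 10480 normalized counts. CDC25B, a phosphatase that activates cyclin-dependent kinases, fell from 4070 to 2384 normalized counts, with 2533 in shNPTX1_4. The stress gene GADD45A, in the p53 and the YAP-TEAD lists, rose from 942 to 3236 normalized counts, with 1627 in shNPTX1_4, and was the only 1 of 25 p53 target genes to be 2-fold apart. Of 24 kept ATF4 targets and amino acid synthesis genes 1 was 2-fold higher and 1 lower, at a median of -0.055. In DESeq2's test 2 of them rose and 5 fell, against 19.4% and 13.1% of all genes. PHGDH, which starts the synthesis of serine, fell from 355 to 109 normalized counts with 157 in shNPTX1_4, while ATF4, whose targets include PHGDH, rose from 3296 to 4955.

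The Notch and neuronal lists had medians below 0. Of 20 kept Notch receptors, ligands and effectors 1 was 2-fold higher and 4 lower, at a median of -0.14. In DESeq2's test 1 rose and 6 fell, against 19.4% and 13.1% of all genes. NOTCH3 had 350.4, 156 and 128 normalized counts. HEYL, a transcriptional effector of Notch, had 70.4, 20.8 and 27.5, and NRARP, a feedback regulator, had 818, 402 and 468. These 3 fell, whereas HEY1 was low in the shNPTX1_3 mean only. Of 23 kept neuronal and synaptic genes 2 were 2-fold higher and 1 lower, at a median of -0.26, and 3 rose and 9 fell. MAP2, a microtubule protein of dendrites, had 4294, 2068 and 3143 normalized counts, and the adhesion molecule gene NCAM1 had 152, 78.9 and 91.0. Both fell. Against this the glutamate receptor subunit gene GRIN2A rose, with 218, 758 and 969.5 normalized counts.

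**Figure D3:**
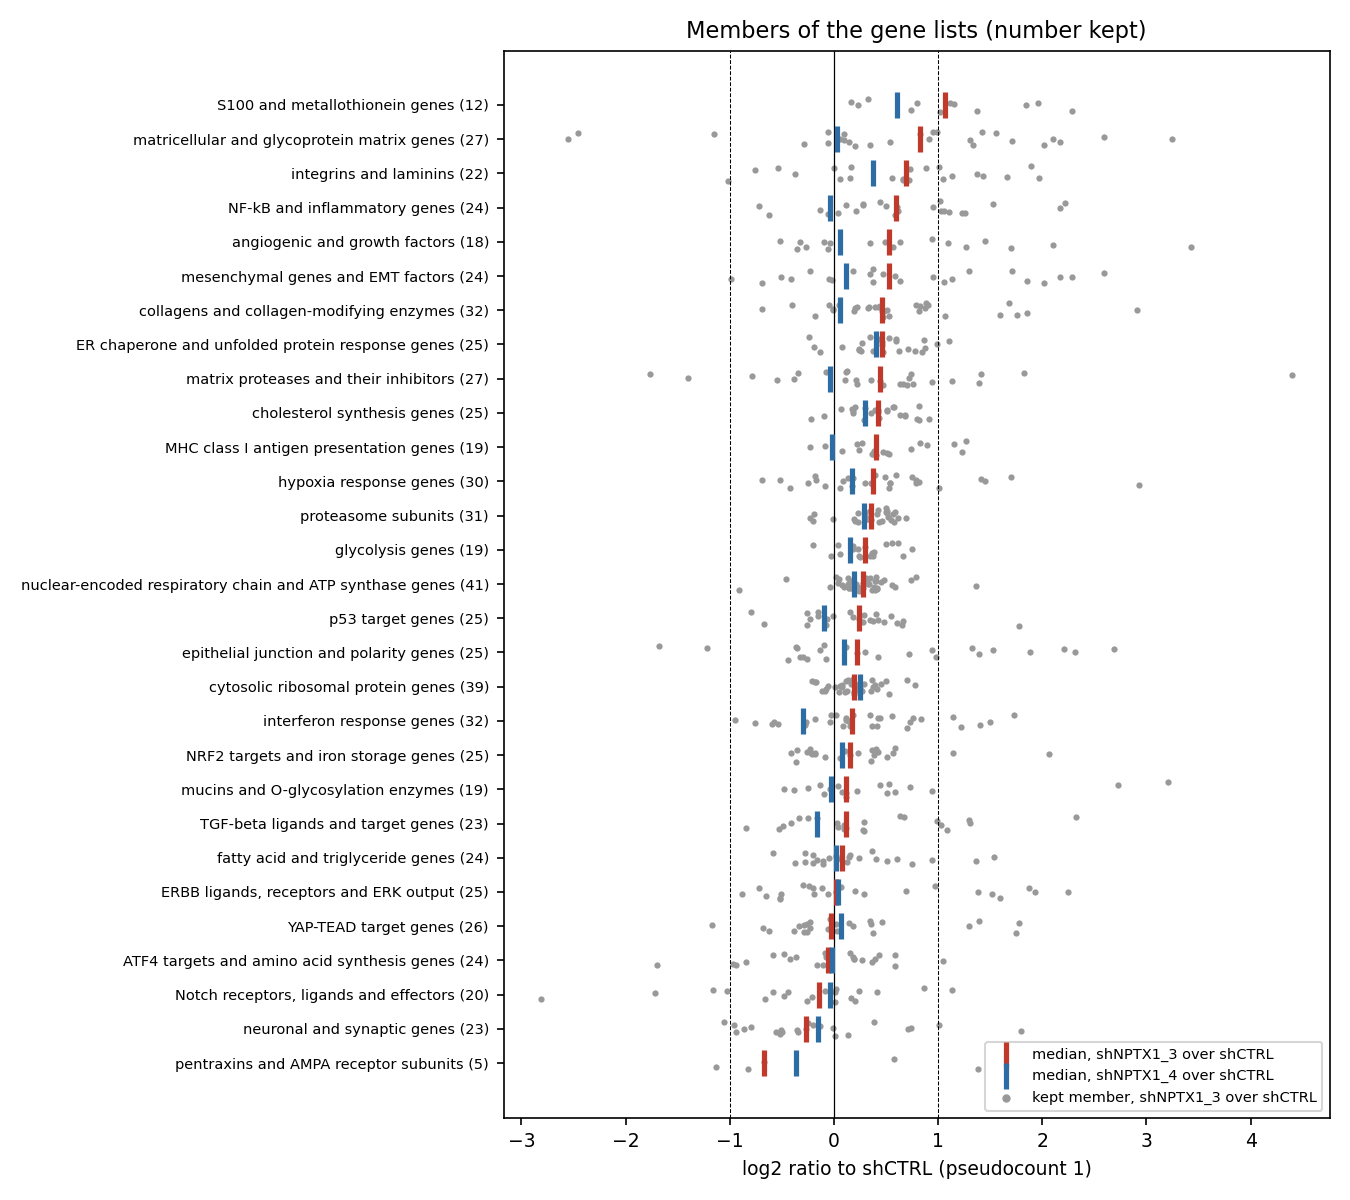
Log2 ratio to shCTRL of each kept list member with shNPTX1_3 (grey points, number of members in brackets) and the list medians with shNPTX1_3 (red) and shNPTX1_4 (blue), with dashed lines at 2-fold. The S100, matricellular and integrin medians of shNPTX1_3 are 1.07, 0.83 and 0.70, while the NF-kB, matricellular and interferon medians of shNPTX1_4 lie at 0.025 or lower.

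Promoter sequences were compared for genes that had 1 in the RefSeq table (GRCh38.p14; 250 bases before to 50 after the gene start), which was the case for 10975 kept genes. Both strands were searched for 4 motifs: the AP-1 site TGANTCA, the NF-kB decamer GGGRNNYYCC, the TEAD site GGAATG and the hypoxia-inducible factor core ACGTG. In these patterns R is A or G, Y is C or T and N is any base. AP-1 matches stood in 7.76% of all 27305 promoters in the table, in 4.56% of the kept genes, in 6.93% of the 303 matched genes at least 2-fold higher, in 3.85% of the 156 lower and in 6 of 48 genes at least 4-fold higher (12.5%). The NF-kB decamer stood in 10.8%, 12.7%, 14.5%, 13.5% and 18.8% of the same sets. GGAATG stood in 14%, 10.6%, 12.2%, 8.97% and 16.7%, and ACGTG in 21.6%, 26.2%, 22.8%, 24.4% and 12.5%. Base composition moved with these shares, since the promoters of the genes 4-fold higher had a median of 12 CpG dinucleotides against 26 in the kept genes, and its part in them was not tested. The 250 bases before the start are shown for 3 of the higher genes and for FREM2, 5′ to 3′ on the strand of the gene, with AP-1 or NF-kB matches in capitals. VAV3, CXCL8 and FREM2 were chosen after their matches were seen and HGF as a high gene without either motif, so they show what a match looks like and nothing about how common it is. A match is a description of letters and not a bound site.
VAV3: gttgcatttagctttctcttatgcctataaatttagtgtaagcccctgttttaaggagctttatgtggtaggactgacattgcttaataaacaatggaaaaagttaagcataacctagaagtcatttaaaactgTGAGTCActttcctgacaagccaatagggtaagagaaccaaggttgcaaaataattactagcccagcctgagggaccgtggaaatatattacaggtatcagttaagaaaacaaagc
CXCL8: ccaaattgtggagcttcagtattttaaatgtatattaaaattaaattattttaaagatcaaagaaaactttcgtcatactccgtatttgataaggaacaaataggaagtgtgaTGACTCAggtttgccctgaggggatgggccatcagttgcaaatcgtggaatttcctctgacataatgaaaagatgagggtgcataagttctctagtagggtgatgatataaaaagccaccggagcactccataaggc
HGF: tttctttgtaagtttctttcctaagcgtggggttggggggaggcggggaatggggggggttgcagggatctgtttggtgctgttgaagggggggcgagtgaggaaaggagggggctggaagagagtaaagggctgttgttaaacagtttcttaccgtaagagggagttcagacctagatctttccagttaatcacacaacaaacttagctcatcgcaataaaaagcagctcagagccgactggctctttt
FREM2: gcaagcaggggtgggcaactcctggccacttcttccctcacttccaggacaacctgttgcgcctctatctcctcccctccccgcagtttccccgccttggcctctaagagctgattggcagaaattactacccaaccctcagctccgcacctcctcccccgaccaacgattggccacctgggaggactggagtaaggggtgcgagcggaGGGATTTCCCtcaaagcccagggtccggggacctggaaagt
The VAV3 stretch is chr1:107688500-107688749 on the minus strand, with an AP-1 match 116 to 110 bases before the start. The CXCL8 stretch is chr4:73740319-73740568 on the plus strand, with an AP-1 match 137 to 131 bases before the start. HGF is read from chr7:81770048-81770297 on the minus strand, and FREM2 from chr13:38686827-38687076 on the plus strand, with a decamer match 41 to 32 bases before the start. The higher genes VAV3, CXCL8 and HGF thus differ in these letters, and the lower gene FREM2 holds a decamer match. The CXCL8 stretch also holds tggaatttcc, which differs from the decamer pattern in its first letter and so was not counted. A stretch without a match may therefore still hold a near match.

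Single libraries could be recovered for part of the low genes. A group mean is a sum of whole reads times a fixed step for each library, and 1 read was worth 0.835, 1.62 and 1.85 normalized counts in the deepest, middle and shallowest shNPTX1_3 library. These correspond to an estimated 24000000, 12400000 and 10800000 reads on genes, if all libraries of a group had the same normalized total. Estimated in the same way, the range was 13000000 to 41200000 in control libraries and 16600000 to 26100000 for shNPTX1_4. Of 2940 kept genes with a shNPTX1_3 mean up to 129 normalized counts, 1174 (39.9%) had a single whole-read solution with at most 0.01 chance matches expected, or 5.71 expected in all. Why the others did not resolve is not known, so the resolved genes may not be typical of low genes. This method was devised after the values were seen, and the libraries cannot be tied to replicate numbers. Of the resolved genes 28 were at least 2-fold higher in the mean, of which 27 had all 3 libraries above the control mean and 15 had all 3 at least 2-fold above it. Of the 42 lower ones 42 had all 3 libraries below the control mean and 16 had all 3 at least 2-fold below it. The background shares of genes called are 2.95% and 1.51% over all kept genes. The resolved genes were limited by their shNPTX1_3 mean, which favours genes low with shNPTX1_3, so their counts cannot be set against these shares. Since the genes 2-fold apart were picked by their mean, the counts are a description only.

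GALNT5, which starts mucin-type O-glycosylation, held 53.4, 71.2 and 55.4 normalized counts in the deepest, middle and shallowest shNPTX1_3 library, against a control mean of 8.22. The cation channel gene TRPA1 held 65.1, 115 and 94.2 against 17.1, and TUBA4A, an alpha tubulin, held 130.2, 121 and 122 against 32.2. MMP9 held 106, 98.6 and 148 against 32.4, so its high mean did not come from 1 library, although shNPTX1_4 was below control. Pleiotrophin (PTN) likewise held 63.4, 74.4 and 105 against 26.6, with 21.1 in shNPTX1_4. On the lower side the tight junction gene CGN held 30.1, 19.4 and 25.9 against 82.7, and VGF, a secreted neuropeptide precursor, held 120.2, 129 and 137 against 376. Both were near control with shNPTX1_4, at 86.1 and 369 normalized counts. The sodium channel subunit genes SCNN1B and SCNN1G held 33.4, 11.3 and 29.6 and 61.8, 34.0 and 42.5 normalized counts, against 74.1 and 107. The 1 higher gene with a library below the control mean was BLOC1S5-TXNDC5, a readthrough, with 145, 37.2 and 199.6 against 58.3. Genes of this paragraph were picked from the resolved genes after their values were seen.

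Over the 1174 resolved genes the shallowest library stood apart. Its median ratio to the control mean was -0.53, against -0.30 in the deepest and -0.14 in the middle library. At least 2-fold below control were 231 genes in the shallowest, 61 in the deepest and 44 in the middle library, and the shallowest was the lowest of the 3 in 683 genes. The limit on the shNPTX1_3 mean favours low ratios in all 3 libraries, so only the differences between the libraries are described. Without the middle library 88 of the resolved genes were 2-fold lower, against 42 with all 3. Whether the shallowest library differs in the genes above these levels was not analysed here.

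**Figure D4:**
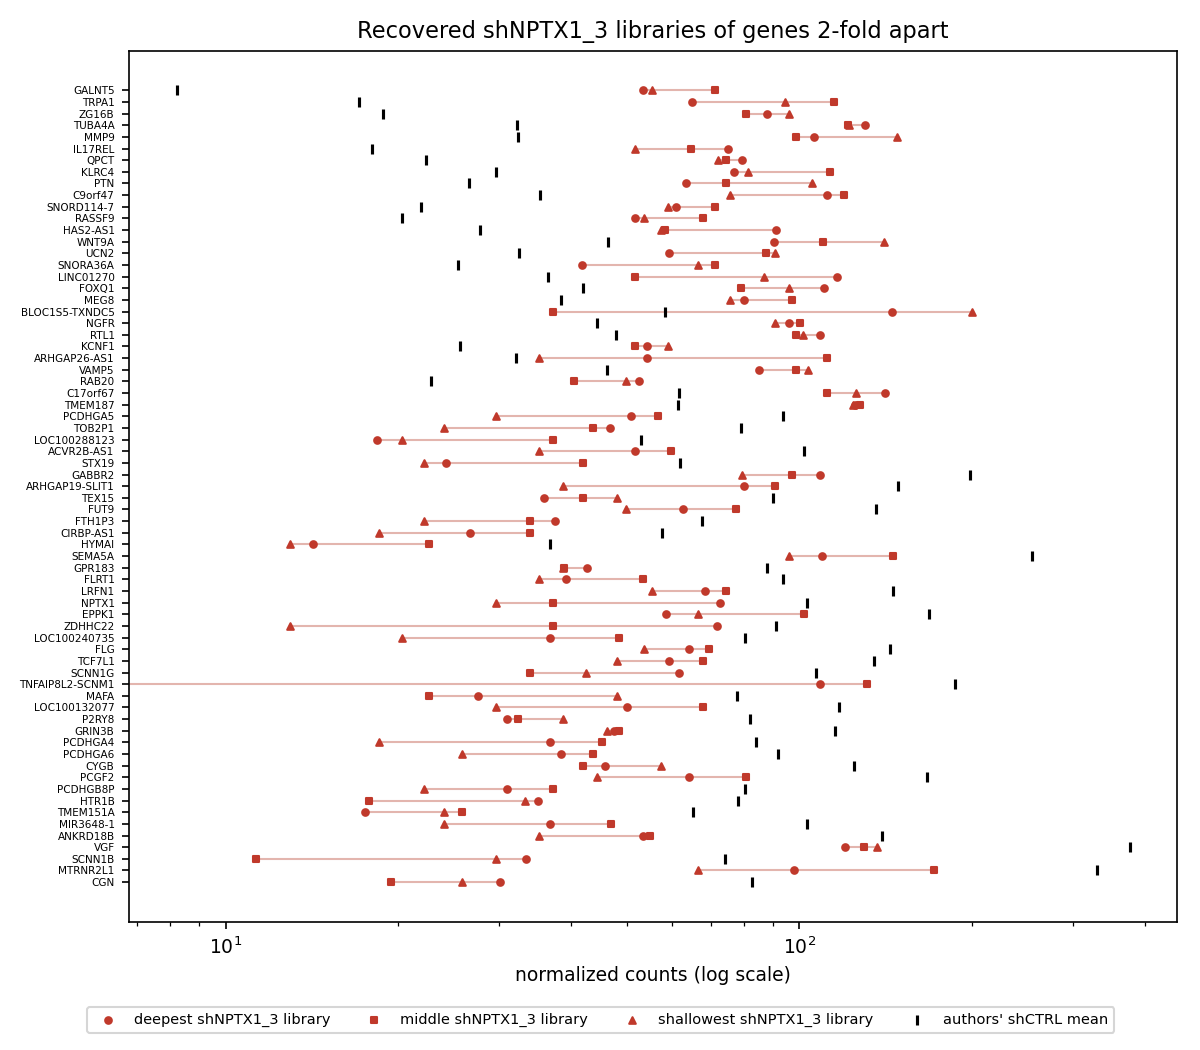
Normalized counts (log axis) in the 3 recovered shNPTX1_3 libraries (circle, square and triangle for the deepest, middle and shallowest) and the authors' shCTRL mean (black bar) of the resolved genes at least 2-fold apart, with ATP5J2-PTCD1 left out and the library of TNFAIP8L2-SCNM1 at 0 off the axis. In GALNT5, TRPA1 and TUBA4A at the top the 3 libraries lie together to the right of control, and in CGN and VGF at the bottom to its left.

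Ratios also ran with expression level and RNA class. The median ratio was -0.25 in the 2153 genes with a mean under 100 normalized counts, -0.082 from 100 to 300, and between 0.077 and 0.13 above 300. Protein-coding genes had a median of 0.040 (12685 genes), long noncoding RNAs -0.28 (719 genes) and transcribed pseudogenes -0.24 (365 genes). The nuclear noncoding RNA KCNQ1OT1 had 36061 normalized counts in shCTRL and 23805 in shNPTX1_3, and MALAT1 had 750289 and 575260. NEAT1, another nuclear noncoding RNA, had 178089 and 169309 and did not pass (authors' deposited table, DESeq2 adjusted p = 0.24). The lower KCNQ1OT1 and MALAT1 values go with the long noncoding RNA median but not with level, since the median above 10000 normalized counts was 0.13. With shNPTX1_4 KCNQ1OT1 had 28682 normalized counts, MALAT1 481245 and NEAT1 119497, at a long noncoding RNA median of -0.14. The part of RNA class, of level and of the low values of the shallowest library in the lower genes was not tested.

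By chromosome, medians stood at 0.21 for chromosome X (446 genes, 6.95% of them 2-fold higher) and -0.15 for chromosome 19 (990 genes), with 0.36 and -0.076 for shNPTX1_4. Along X the median went up with position, at -0.11, 0.18, 0.36 and 0.55 in 4 consecutive blocks of 111 or 112 genes, and at 0.11, 0.38, 0.39 and 0.52 with shNPTX1_4. The highest running window of 41 genes in the genome lay at the end of X, from CETN2 to SNORA36A, with a median of 0.73 (0.66 with shNPTX1_4), 39 of 41 genes above control and 37 higher in DESeq2's test. It holds the actin crosslinker gene FLNA, with 12872, 28310 and 20408 normalized counts, and the kinase gene IRAK1, with 2639, 5412 and 4489. The lowest window, on chromosome 5 from PCDHB2 to SPRY4, had a median of -0.64 (-0.81 with shNPTX1_4) and 30 genes lower in DESeq2's test. Its protocadherin gamma genes share exons, so their counts are not independent. The adhesion gene PCDHGA6 had 91.8, 36.0 and 40.3 normalized counts. Both windows were found by searching the ratios, and both share their controls between hairpins, so no test is given.

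**Figure D5:**
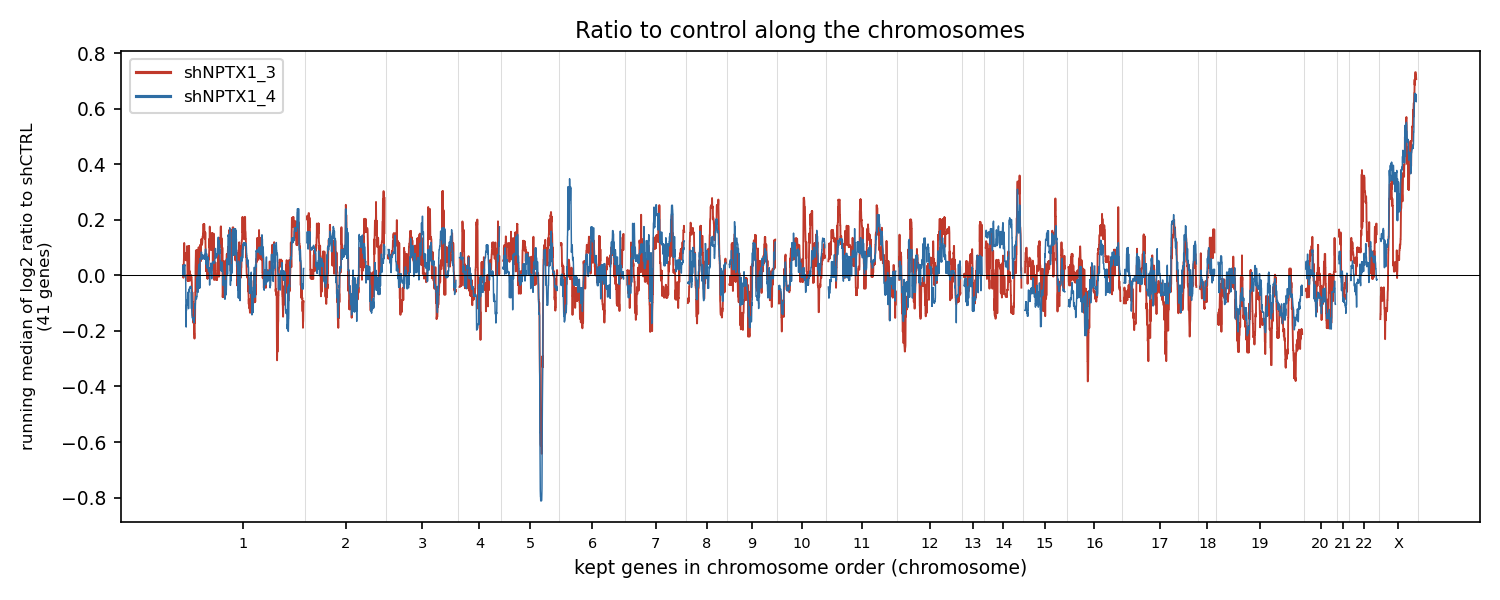
Running median over 41 kept genes of the log2 ratio to shCTRL, with genes in order along chromosomes 1 to 22 and X (horizontal axis, gene order), for shNPTX1_3 (red) and shNPTX1_4 (blue). Both lines climb along X to 0.73 and near 0.66 and drop on chromosome 5 to -0.64 and -0.81.

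Tumour cell markers were present at high levels. Of 12 pancreatic carcinoma markers 11 were kept and 8 were 2-fold higher, against 2.95% of all genes. Their median was 1.31 against 0.48 with shNPTX1_4, and 1 of the 8 was also 2-fold higher with shNPTX1_4. DESeq2's test called 6 of the 11 higher and 0 lower, against 19.4% and 13.1% of all genes. CDH1 and TGFBI, among the 8, did not pass. The 12 together summed to 98939 normalized counts in control, 178041 with shNPTX1_3 and 127597 with shNPTX1_4. VIM, the most abundant, had 60617, 68672 and 68305, and EPCAM had 462, 438 and 548. Markers of other cells were low. Of 19 hepatocyte markers 2 met the level rule, the 19 summed to 385, 559 and 303 normalized counts, and albumin (ALB) was under 1 in every group. The apolipoprotein gene APOA1, with 9.99, 49.3 and 21.9 normalized counts, and the transferrin gene TF, with 12.3, 35.1 and 20.6, did not meet the level rule but rose and were highest with shNPTX1_3. No other hepatocyte marker passed, and their directions differed. SERPINA1 had 28.9, 48.2 and 25.6 normalized counts, FGB 22.4, 20.1 and 18.9, and ASGR1 11.4, 7.65 and 6.53. Of 17 macrophage markers 4 met the level rule, with sums over the 17 of 946, 1014 and 810, and MARCO, VSIG4, C1QA and C1QC were at 0 in every group. Of 15 endothelial markers 4 met it, and the 15 summed to 581, 595 and 557. The lymphoid, neutrophil and erythroid lists had 2, 3 and 1 genes at that level, with whole-list sums of 418, 215 and 249.4 normalized counts for shNPTX1_3 and control sums of 525, 233 and 305. The fibroblast and stellate list summed to 3120, 7727 and 3978 normalized counts, with COL3A1 the most abundant member with shNPTX1_3, while DCN was under 5, COL1A1 had 725, 701 and 1019 and THY1 had 1222, 860 and 383. Whether COL3A1 and POSTN reads came from tumour cells or others was not tested. The marker values are counts on human gene symbols, and the sources used here do not give how reads of the host were treated. Low values therefore do not measure how many host cells a tumour held.

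Digestive enzyme genes were examined after AMY2A came first in the ranking. Of 18 such genes in the table, 7 had a shNPTX1_3 mean over 3 normalized counts and at least 4 times both other groups, among them AMY2A, AMY1A, PRSS1, CPA1, CELA3A and PNLIP, genes of the enzymes that pancreatic acinar cells secrete. The trypsinogen gene PRSS1 had 1.02, 46.1 and 0.91 normalized counts, and the carboxypeptidase gene CPA1 had 1.62, 40.9 and 0. In the libraries that could be recovered these genes were highest in the middle shNPTX1_3 library: CELA3A held 8.35, 51.7 and 0 normalized counts from the deepest to the shallowest, and AMY1A held 31.7, 42.0 and 16.6. AMY2A, PRSS1 and CPA1 could not be resolved. The elastase gene CELA3B (37.4, 29.1 and 28.9), CEL, CLPS and CTRB1 did not pass DESeq2's test. The part of acinar tissue in these values was not tested.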

How the data were processed

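Per the labels' protocols, a Norgen kit gave total RNA of the tumours, and TruSeq (version 2) libraries were prepared. Tools named in the submitters' processing notes, without their roles, are DESeq2 1.24, featureCounts 2.0.0, STAR 2.7.6a and MultiQC 1.9, with the builds hg19 and mm39. The strand setting of the counting was not found in the sources used here. The deposited group means are a signal, namely counts that the authors scaled by size factors and then averaged within each group. The deposited table also gives, per the file headers, a log2 fold change and its error, their quotient as a Wald score, and a p-value, raw and adjusted, for 7 knockdown over 4 control libraries. Group totals were 18734000 (shCTRL), 19997100 (shNPTX1_3) and 19323200 (shNPTX1_4) normalized counts.

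From these were computed (Python 3.11.15, pandas 2.3.3, numpy 2.4.6, matplotlib 3.10.9) the log2 ratio of group means with a pseudocount of 1, which understates low genes, the counts at 2-fold, list medians and the recovered libraries. The recovery was also run on simulated whole-read counts. Those differ from the data, in which 39.9% of the tried genes resolved, so the simulation does not vouch for the recovery here. The median standard error of the kept genes in the authors' deposited table was 0.125. RefSeq matched 13977 symbols (98.9%) for chromosome and RNA class. An edgeR test of counts was planned and replaced by the authors' comparison, since the values are group means. The genes named were NPTX1, the 15 highest and 15 lowest ratios, the 10 highest and lowest at 50 CPM, and in each list up to 6 members with the largest ratios. Genes of the windows, recovered libraries, promoters, nuclear RNAs, cell markers and digestive enzymes stand outside that rule. Some genes that the rule names are not reported here. The members and gene lists were chosen with earlier results of these data known.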

Additional observations from a re-analysis of the deposited data

How the results depend on the processing

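The count of genes 2-fold apart depended on the level minimum. With a minimum of 10 CPM 264 genes were higher and 84 lower, and with no minimum 808 and 777, of which 51.0% were higher. At 1.5-fold the counts were 1246 and 1100 (53.1% higher), and at 4-fold 70 and 15 (82.4% higher). Scaled to the same total, 53% of the genes 2-fold apart were higher, and the medians of the ERBB and fatty acid lists turned to -0.073 and -0.015, while the other 30 list medians kept their sign. At an adjusted p under 0.01 DESeq2's comparison called 1809 genes higher and 1126 lower. Leaving out 1 shNPTX1_3 library, which was added after the data were seen and covers the resolved genes only, gave 27 to 32 genes 2-fold higher and 30 to 88 lower, against 28 and 42. The 88 came without the middle library, and the cause was not tested. The ratio of NPTX1 then ran from -1.60 to -0.89. With a pseudocount of 10, 26 of 50 named ratios moved and none changed sign. The leave-one-out of all genes, the edgeR and DESeq2 count tests and the replicate block were not run, because the table holds group means. No paired analysis was possible because the group means carry no replicate numbers. Depth limits the low genes, where 1 read in the shallowest library is worth 1.85 normalized counts.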
